A study of Mus musculus with 4 samples.

Results

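White fat cells of the skin lie in a layer beneath the dermis and around hair follicles. They store triglyceride in 1 large droplet, release fatty acids on demand and secrete hormones. A set of 10 genes that mark these cells was read from libraries of capped RNA 5′ ends made from inflamed facial skin of mice. The genes were chosen by name, and every entry of the deposited table that carries one of the 10 symbols was taken. They are 10 of the 17849 genes in the table, and all 10 were measured.

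The libraries were made by cap analysis of gene expression (CAGE), in which a short tag is read from the capped start of each RNA. A tag is therefore taken to mark a transcription start. Levels in CPM (tags scaled to a common library total) do not depend on transcript length, so the genes are set beside each other. Some tags lay at the edge of exon 2, however, and whether these are counted changes some levels, as given below. All 4 libraries form 1 group: lesional facial skin of C57BL/6 mice of genotype Nectin-cre(+);Ikk2FL/FL;Postn-/- at postnatal day 28. These are FADS mice, a model of facial dermatitis in which Cre deletes the floxed Ikk2 kinase gene, and the gene of the matrix protein periostin, Postn, is absent as well. There are no control skins, and the cell types in which the Cre acts are not given in the labels. The sample codes of libraries 1 and 2 share their first part, as do those of libraries 3 and 4, but the labels do not say what the codes mean or whether each skin came from its own animal, so each p-value reflects the variation among these 4 skins and nothing beyond it, which may be technical.

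The nuclear receptor PPARG and the transcription factor C/EBP alpha (Cebpa) together switch on and maintain the fat cell program. Their targets include the fatty acid carrier FABP4, lipoprotein lipase (Lpl), which frees fatty acids from blood lipoproteins, and the droplet coat proteins perilipin 1 and perilipin 4 (Plin1, Plin4). CIDEC fuses small droplets into large ones. Adiponectin (Adipoq), leptin (Lep) and the protease complement factor D, also called adipsin (Cfd), are secreted. Adiponectin and leptin come almost only from fat cells, whereas Fabp4 is also used by capillary endothelium and macrophages, Lpl by muscle and macrophages, and Pparg by sebaceous gland cells. These are examples and not a full list of other sources. In whole skin the tags of a member, Cfd and Cebpa included, cannot be assigned to a cell type.

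Pparg has several promoters, so the DNA around its starts is shown first. Beside it stand Lep, Cidec, Cebpa and Plin4, which have narrow starts or a TATA motif, and the hormone gene Adipoq. The sequences are those of RefSeq promoter windows on GRCm38.p6, 5′ to 3′ on the strand of the gene. Capitals mark every match, on either strand, of the motifs TATAA and CCAAT, of the GC box GGGCGG and of TTGCNNAA, the last being a core of the sites that C/EBP proteins bind. Overlapping matches run together into 1 stretch of capitals.
Pparg A, chr6:115360895-115360974, plus strand: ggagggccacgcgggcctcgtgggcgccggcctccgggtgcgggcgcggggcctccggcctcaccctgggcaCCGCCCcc
Pparg B, chr6:115362309-115362338, plus strand: cctgggctgcttTTATATAAgggacgcgag
Pparg C, chr6:115421978-115422057, plus strand: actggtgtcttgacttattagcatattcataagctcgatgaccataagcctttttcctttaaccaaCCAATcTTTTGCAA
Lep, chr6:29060141-29060220, plus strand: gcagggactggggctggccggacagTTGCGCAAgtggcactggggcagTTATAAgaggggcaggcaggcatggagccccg
Cebpa, chr7:35119214-35119293, plus strand: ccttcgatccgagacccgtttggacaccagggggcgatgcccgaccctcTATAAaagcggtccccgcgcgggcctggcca
Plin4, chr17:56109785-56109864, minus strand: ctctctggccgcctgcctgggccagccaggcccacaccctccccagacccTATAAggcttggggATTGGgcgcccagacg
Adipoq, chr16:23146460-23146539, plus strand: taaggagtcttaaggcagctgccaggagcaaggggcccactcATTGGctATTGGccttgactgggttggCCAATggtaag
Cidec, chr6:113435756-113435835, minus strand: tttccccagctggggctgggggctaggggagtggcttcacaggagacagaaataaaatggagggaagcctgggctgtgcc

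RefSeq windows, each from 250 bases before to 50 bases after a start, were found for 8 members, 11 windows in all. TATAA on either strand was in 4 of the 11 (36.4%), against 24.9% of the 32817 windows of all genes. On the gene's own strand and 45 to 16 bases before the RefSeq start, it was again in 4 of 11 (Lep, Cebpa, Plin4 and Pparg B), against 3.9% of all windows. The motif began 25 bases before the first base of the tag cluster in Lep and Cebpa and 24 bases before it in Plin4, and in Pparg B it lay inside the span of the cluster. CCAAT, the box read by NF-Y, was in 4 of 11 windows (36.4% against 37.4%), and GGGCGG, the GC box read by Sp1, in 3 of 11 (27.3% against 35.6%). TTGCNNAA was in 4 of 11 (36.4% against 10.8%), those of Lep, Plin1, Pparg C and the Cidec window around the Cidec-203 start. The starts of the last 2 were little used, with 27 tags in all at Pparg C and 13 at Cidec-203. A pair of AGGNCA half-sites in tandem with 1 base between them was in 0 of 11 (0.381% of all windows). Such a pair is the form of direct repeat bound by PPARG with its partner RXR. These are matches of letters in windows chosen by gene name, and no binding was measured.

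The entries of a library summed to 17630119 to 18823630 tags, so 1 tag was worth 0.0531 to 0.0567 CPM. In these sums a cluster listed under several genes counts once for each gene. Distinct clusters held 16492915 to 17691558 tags. Of the 17849 genes, 17037 were kept as having tags of their own, and 14732 of these reached a mean of 1 CPM and were tested for differences between libraries. Glandular secretion genes were high in library 2 and, for most of them, in library 4. The 7 genes of this list summed to 10.1, 44157, 0.226 and 10094 CPM in libraries 1 to 4. Bpifa2, the most abundant, measured 4.18, 16004, 0.113 and 4.46 CPM. Smr3a was likewise high in library 2 alone, and the other genes of the list in libraries 2 and 4. TMM scaling, which sets libraries on a common footing by their typical gene, moved the median gene by 0.00, 0.11, -0.06 and -0.05 on the log2 scale. Levels below are CPM as deposited, in the order of libraries 1, 2, 3 and 4.

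The 3 most abundant members were a secreted protease, an extracellular lipase and a transcription factor. Cfd, which starts the alternative complement pathway by cutting factor B, measured 148.74, 135.15, 258.71 and 190.14 CPM. Its mean was 183 ± 55.5 CPM (SD, n = 4), rank 752 of 17037 genes. Library 3 stood highest, and libraries 3 and 4 both lay above libraries 1 and 2. Lpl measured 120.02, 96.4, 133.29 and 142.87 CPM, a mean of 123 ± 20.2 CPM (rank 1361), and was again higher in libraries 3 and 4. Cebpa measured 96.6, 90.7, 149.29 and 128.26 CPM, a mean of 116 ± 27.5 CPM (rank 1453), with the same split of the libraries.

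Genes of fatty acid transport and the lipid droplet lay in the middle of the order. Fabp4 measured 76.0, 65.6, 49.0 and 55.2 CPM, a mean of 61.5 ± 11.9 CPM (rank 3275). It was the 1 member whose levels in libraries 1 and 2 both lay above those in libraries 3 and 4. Plin4, the most abundant of the droplet coat genes among the members, measured 38.1, 33.2, 40.4 and 48.1 CPM, a mean of 40.0 ± 6.18 CPM (rank 4999). Cidec measured 35.4, 32.1, 39.3 and 29.9 CPM, a mean of 34.2 ± 4.09 CPM (rank 5674), and its libraries 3 and 4 lay on either side of the others. Plin1, whose protein guards the droplet against lipases, measured 18.4, 18.4, 26.7 and 25.8 CPM, a mean of 22.3 ± 4.52 CPM (rank 7488), with libraries 1 and 2 together below libraries 3 and 4.

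The receptor gene and both hormone genes were lowest as deposited, where the exon 2 clusters of Adipoq and Lep described below are not counted. Pparg measured 10.8, 12.1, 16.6 and 14.5 CPM, a mean of 13.5 ± 2.57 CPM (rank 9316). Adipoq measured 11.1, 9.03, 16.6 and 15.7 CPM, a mean of 13.1 ± 3.61 CPM (rank 9424). In both genes libraries 3 and 4 lay above libraries 1 and 2. Lep measured 3.69, 3.51, 3.46 and 4.35 CPM, which were 67, 66, 61 and 78 tags, a mean of 3.75 ± 0.410 CPM (rank 12619). Its libraries overlapped, and the lowest and highest were 1.26-fold apart, the smallest such ratio among the 10 members. Cfd and Lep, both of which encode secreted products of fat cells, thus stood at opposite ends of the order.

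**Figure D1:**
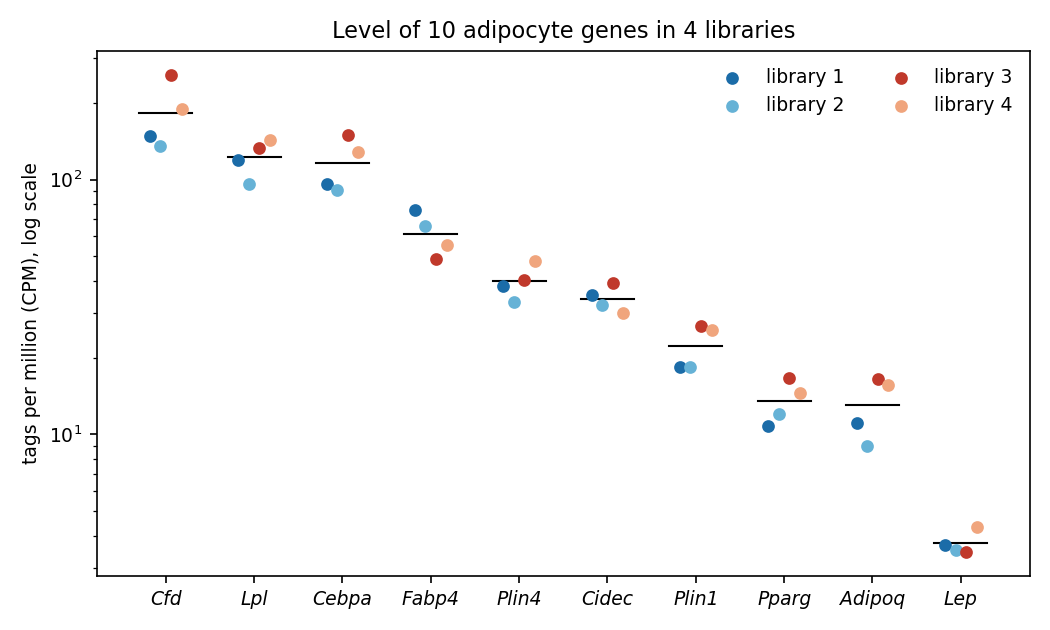
Levels of the 10 adipocyte genes (vertical axis, CPM, log scale), ordered by mean. Points are the 4 libraries and the bar is their mean; Cfd is highest at 183 CPM, Lep lowest at 3.75 CPM, and Fabp4 is the gene in which libraries 1 and 2 (blue) both lie above libraries 3 and 4 (red).

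The order by mean was Cfd, Lpl, Cebpa, Fabp4, Plin4, Cidec, Plin1, Pparg, Adipoq and Lep. For 4 of the 9 pairs of neighbours in this order the ranges over the libraries overlapped. Pparg and Adipoq were the closest, at a 1.03-fold difference of means with Pparg higher in 2 of 4 libraries. Lpl was above Cebpa in 3 of 4 libraries at 1.06-fold, while Cfd over Lpl (1.49-fold) and Plin4 over Cidec (1.17-fold) kept their order in 4 of 4 libraries although their ranges overlapped. The other 5 neighbours did not overlap: the step from Adipoq to Lep was the widest at 3.49-fold, followed by Cebpa to Fabp4 at 1.89-fold.

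The members' starts were read from 43 clusters, none of which is listed under another gene. Of these clusters, 1 of Cidec held no tag, and 17 held at least 1% of their gene's tags on average. Fabp4 (chromosome 3, 10208469 to 10208683, minus strand), Adipoq (chromosome 16, 23146534 to 23146618, plus strand) and Lep (chromosome 6, 29060215 to 29060223, plus strand) had 1 named cluster each, which covered the annotated start of Fabp4-201, Adipoq-201 and Lep-201. In Lpl the cluster from 68880537 to 68880735 on the plus strand of chromosome 8 took 99.4 ± 0.322% of the tags. In Cfd, the cluster from 79890886 to 79890923 on the plus strand of chromosome 10 took 98.3 ± 0.259%, and began 33 bases inside the first exon of Cfd-201.

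Cebpa and Plin4 each had a main start and a weak second one. The Cebpa cluster at 35119288 to 35119373 on the plus strand of chromosome 7 covered the annotated starts and took 95.8 ± 0.828% of the tags. A second Cebpa cluster, 287 bases downstream of the start of Cebpa-201 and inside the single exon of that transcript, took 2.42 ± 0.478%. The Plin4 cluster at 56109605 to 56109790 on the minus strand of chromosome 17 lay 12 bases downstream of the start of Plin4-201 and took 95.8 ± 0.929%. It is wide enough to reach the first base of exon 2 at its far end, so tags at that base, if any, are part of the Plin4 level and cannot be separated from it. A cluster 495 bases upstream of the annotated Plin4 start took 3.26 ± 0.403%, with 20, 21, 27 and 26 tags. The share of the second Cebpa cluster ran from 1.87% to 2.999% over the libraries, and that of the upstream Plin4 cluster from 2.89% to 3.79%.

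The main clusters fell into narrow and wide ones, counted as end minus start. Lep (8 bases), Cidec (13), Cfd (37) and the main Pparg start (42) were narrow, whereas Plin4 (185), Lpl (198), Plin1 (199) and Fabp4 (214) were wide. Only the outer edges of a cluster are given, so how the tags lie within it is not known. Adipoq (84) and Cebpa (85) lay between. The median cluster of the table spanned 10 bases.

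Pparg tags came from 3 promoters, called A, B and C here in 5′ to 3′ order. A is a group of 4 clusters from 115360847 to 115361270 on the plus strand of chromosome 6, around the start of Pparg-202. B is a single cluster from 115362315 to 115362357, inside the first exon of Pparg-204 and over the starts of Pparg-206 and Pparg-203. C is a single cluster from 115422052 to 115422063, which ends 3 bases before the start of Pparg-201. The annotated starts of A and B lie 1341 bases apart, and those of B and C 59774 bases. Pparg-202 and Pparg-204 encode the same length of protein, 475 residues, whereas Pparg-201 encodes 505 residues and is the longer form PPARG2, which is found mainly in fat cells.

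Promoter B gave most Pparg RNA starts in every library. B held 145, 172, 233 and 199 tags, a mean of 10.4 ± 2.30 CPM and a share of 76.4 ± 2.45% of the gene's tags. A held 43, 49, 50 and 59 tags, 2.77 ± 0.394 CPM and 20.8 ± 2.53%. C, the PPARG2 start, held 9, 6, 10 and 2 tags, 0.373 ± 0.203 CPM and 2.85 ± 1.60%. The order B, A, C held in 4 of 4 libraries with no overlap of the ranges.

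The share of C was 4.57% in library 1 (95% Wilson interval 2.42 to 8.45), 2.64% in library 2 (1.22 to 5.65), 3.41% in library 3 (1.86 to 6.17) and 0.769% in library 4 (0.211 to 2.76). The intervals cover counting error only, and the use of C was not tested between libraries. The lowest share, in library 4, rests on 2 tags. Mean CPM at C was 0.135 of that at A and 27.8-fold below that at B. The level of C was under the 0.5 CPM required for the test of promoters, so it was not tested.

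The ratio of A over B was tested within each library for all genes with several promoters. Pparg gave a log2 ratio of -1.85 ± 0.22 (SD, n = 4), that is B 3.60-fold higher, with B higher in 4 of 4 libraries (limma against 0, Benjamini-Hochberg adjusted p = 2.77e-05). Of the 2335 genes tested, 92.9% were called in either direction and 28.3% in the direction of Pparg, the downstream promoter higher. An exact sign-flip permutation test over 4 libraries cannot go below p = 0.125. The ratio of A to B differed between libraries no more than that of other genes, with an adjusted p of 0.982 for its spread in limma, where 0 genes were called. At an unadjusted p under 0.05 there were 73.

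**Figure D2:**
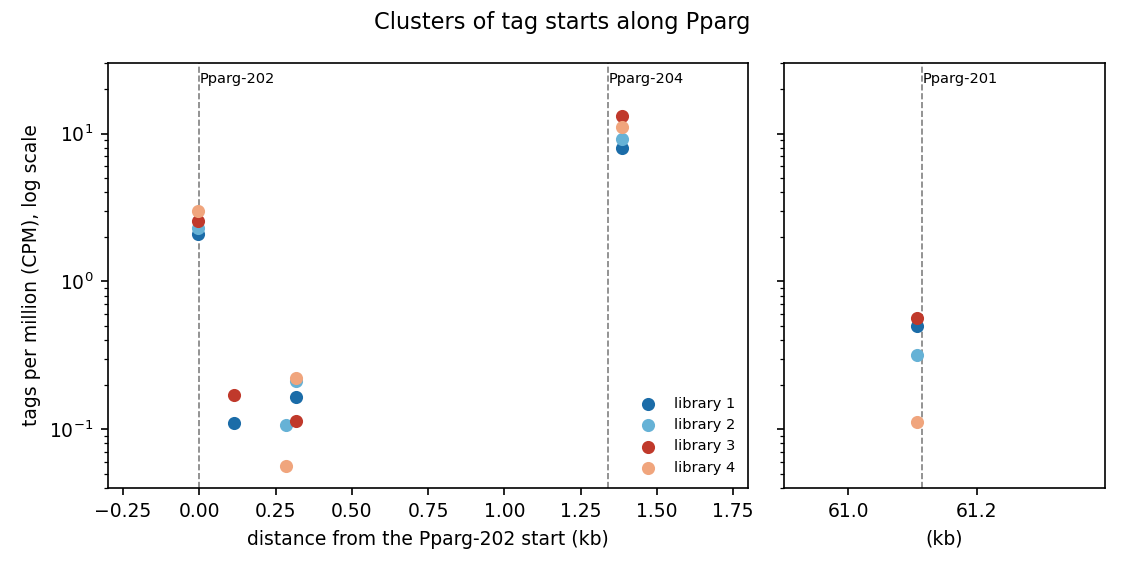
Clusters of tag starts along Pparg by distance from the Pparg-202 start (kb, 2 panels with a gap between them) and level in each library (CPM, log scale; clusters without a tag in a library are not drawn). Dashed lines are annotated starts; promoter B, near Pparg-204, holds the highest points in all 4 libraries and promoter C, near Pparg-201, ranges over 2 to 10 tags.

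The PPARG partners and upstream factors were measured in the list of adipogenic regulators, of which all 18 genes were found and 17 tested. None was called by the spread test. The 4 with the highest level were Cebpb (296 ± 7.25 CPM), an early factor of fat cell differentiation, the corepressor Tle3 (168 ± 15.2), Egr2 (76.2 ± 3.60) and Rxra (72.5 ± 12.3), which encodes the receptor that pairs with PPARG. The median range of the 17 over the libraries was 0.35 on the log2(CPM + 1) scale, against 0.28 for all genes tested. Of the 17, 11 lay higher in libraries 3 and 4 than in libraries 1 and 2 as deposited, where 45.6% of all genes did, and 9 did after TMM scaling, where 26.3% of all genes did.

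In 5 members a narrow cluster apart from the first exon held the first base of exon 2 of the annotated transcript, which was noticed after the values were seen. In Adipoq this cluster (chromosome 16, 23155214 to 23155219) has no gene name in the table and held 209, 176, 295 and 266 tags, beside 202, 170, 292 and 281 at the first exon. Summed over the libraries, 946 tags lay at exon 2 and 945 at exon 1. In Lep the unnamed cluster at exon 2 (chromosome 6, 29068918 to 29068923) held 79, 67, 51 and 78 tags beside 67, 66, 61 and 78 at the first exon, 275 against 272 in all. Both hormone genes thus had about 1 tag at the edge of exon 2 for each tag at exon 1.

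In Cidec, Plin1 and Cfd the cluster at exon 2 carries the gene's name and enters its level. Cidec held 306, 282, 325 and 252 tags at exon 2 (chromosome 6, 113434508 to 113434515) beside 329, 316, 363 and 281 at exon 1, or 90.4 ± 1.77% (SD of the ratio, n = 4). Plin1 held 81, 85, 104 and 98 tags at exon 2 (chromosome 7, 79732154 to 79732176), 29.9 ± 2.69% of the 254, 262, 367 and 364 at exon 1, and this cluster also covers the annotated start of Plin1-202. Cfd held 13, 13, 37 and 32 tags at exon 2 (chromosome 10, 79891454 to 79891458), 0.697 ± 0.230% of its first exon tags. The exon 2 tags thus ran from under 1% of the first exon tags to about equal among the 5 genes.

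In the fit of promoter ratios these clusters are in the downstream promoter of Cidec, Plin1 and Cfd. In Plin1 the log2 ratio of first exon over exon 2 was 1.73 ± 0.13 (adjusted p = 1.09e-05, limma), where 64.6% of all genes tested were called with the upstream promoter higher. In Cidec and Cfd, clusters under 500 bp away are joined to the one at exon 2. The joined log2 ratio was 0.13 ± 0.03 in Cidec (adjusted p = 0.140, limma) and 6.24 ± 0.11 in Cfd (adjusted p = 3.46e-07, limma). For the exon 2 cluster of Cfd alone it was 7.09 ± 0.42 (adjusted p = 1.76e-07, limma with single clusters). Of the 2335 pairs, 31.9% include such a cluster.

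The distance from the first-exon tags to the end of exon 1 ran from 25 to 33 bases in Lep, 23 to 107 in Adipoq and 57 to 94 in Cfd. In Cidec and Plin1 it depends on the annotated transcript. It was 34 to 47 for the Cidec transcript with a first exon of 47 bases, and is shorter for the one with 32 bases. The wide Plin1 cluster reached past the end of exon 1 in the transcript with a first exon of 46 bases. In the Plin1 transcript with a first exon of 91 bases, exon 1 ends downstream of the cluster. Across the table, 516 of 1081 narrow unnamed clusters of at least 1 CPM (47.7%) held the first base of an inner exon, against 3.33% or less when the same clusters were shifted by 10 to 100 bases. Among narrow named clusters 551 of 2317 (23.8%) did so. Clusters of up to 100 bases that hold such a base took 3.04%, 2.90%, 3.30% and 3.16% of the distinct-cluster tags in libraries 1 to 4. A capped RNA that starts at the edge of exon 2 and a tag of a spliced RNA placed at exon 2 cannot be told apart in these files.

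**Figure D3:**
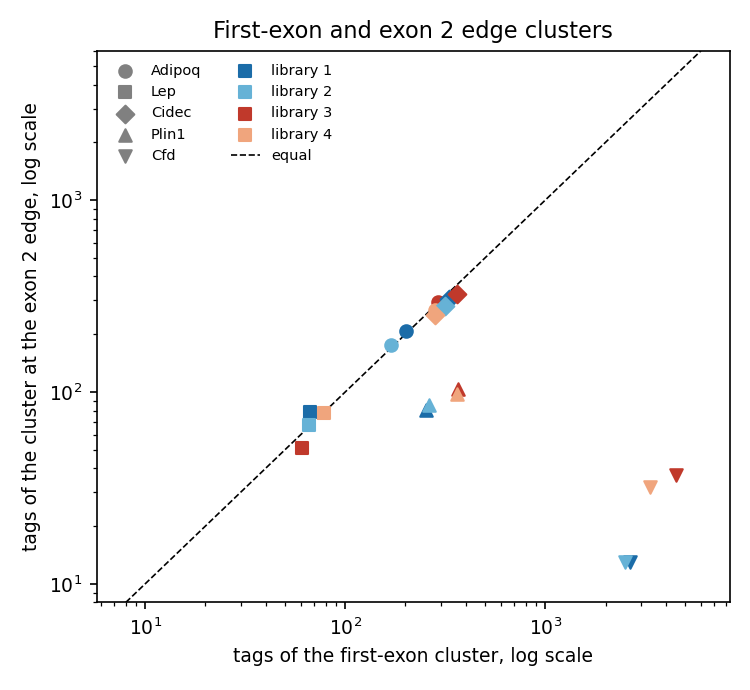
Tags of the first-exon cluster (horizontal) and of the cluster holding the first base of exon 2 (vertical), both on log scales, for 5 adipocyte genes in 4 libraries; the dashed line marks equal numbers. Adipoq and Lep lie around the line at totals of 946 against 945 and 275 against 272, Cidec just under it, and Plin1 and Cfd well below.

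The choice of clusters moved some levels and part of the order. With the exon 2 clusters left out, Cidec was at 18.1 ± 2.14 CPM and Plin1 at 17.25 ± 3.82 CPM, and 5 of 9 neighbours then overlapped. With the unnamed clusters on the gene's strand added, Adipoq rose to 26.2 ± 6.90 CPM and Lep to 7.54 ± 1.03 CPM. Adipoq then stood above Plin1 (22.3 CPM) and Pparg (13.5 CPM), whose levels did not change in that count. Lep stayed the lowest of the 10 genes in both counts.

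Differences between libraries were tested for all genes, since the labels give no groups to compare. In limma, a gene was called where its spread over the 4 libraries exceeded that of genes of its level. None of the 10 members was called, and 61 of 14732 genes (0.414%) were. At an unadjusted p under 0.05 there were 3 of 10 members and 6.38% of all genes. These were Cfd, Fabp4 and Cebpa, with adjusted p-values of 0.592, 0.643 and 0.754 in limma. Their ranges from lowest to highest library were 0.76, 0.68 and 0.56 on the log2(CPM + 1) scale. The edgeR test on recovered tags called 0.224% of genes and 0 members, and DESeq2 marked 3.48% of genes as dispersion outliers, among them 1 member, Cfd.

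The members' median range was 0.48 on the log2(CPM + 1) scale, against 0.28 for all genes tested, and 9 of 10 lay above the median gene. Adipoq had a range of 0.65, Pparg 0.51, Plin1 0.45, Lpl 0.39, Cidec 0.38 and Plin4 0.35. Lep, at 0.26, was the member below the median gene. The amount of fat in each piece of skin was not tested, and in bulk tissue fewer cells of a type and less RNA per cell cannot be told apart.

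**Figure D4:**
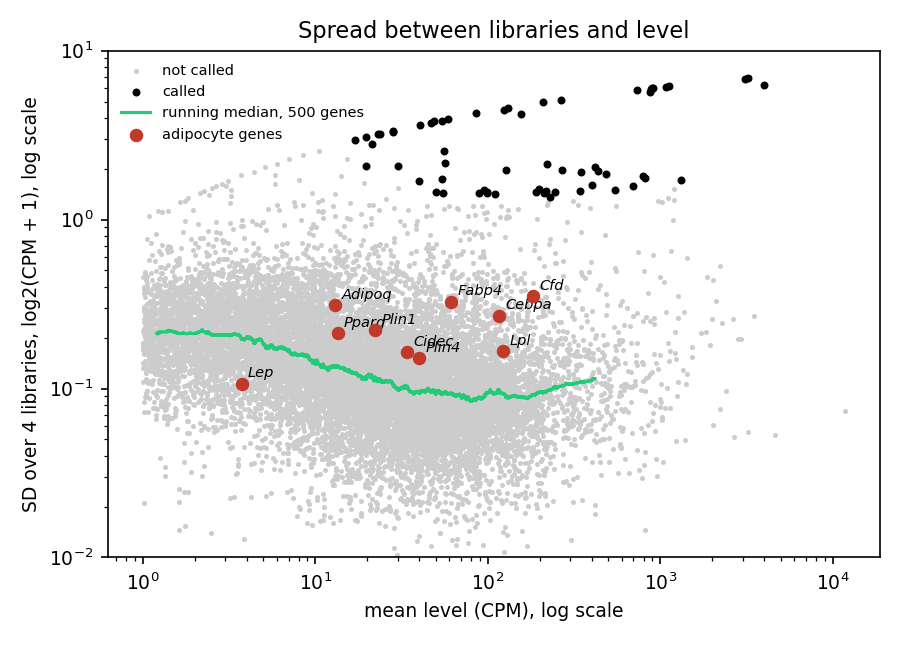
Standard deviation over the 4 libraries (log2(CPM + 1) with TMM scaling, log axis) against mean level (CPM, log axis) for the 14732 genes tested; 16 genes with a smaller SD lie below the axis. Black points are the 61 genes called, the line is the running median of 500 genes, and the 10 adipocyte genes (red) lie among the genes not called, 9 of them with a range above that of the median gene.

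Libraries 3 and 4 were both above libraries 1 and 2 for 7 of 10 members: Adipoq, Plin1, Plin4, Lpl, Pparg, Cfd and Cebpa. The same held for 45.6% of all genes in CPM as deposited, for 26.3% after TMM scaling and for 26.9% with DESeq2 size factors, and the 7 members were the same under all 3 scalings. The reverse held for Fabp4 alone among the members, and for 11.5% of genes as deposited, 27.8% with TMM and 27.8% with DESeq2 size factors. Library 3 was the highest in 6 members (35.3% of genes as deposited), library 4 in 3 (35.4%), library 1 in Fabp4 (22.8%) and library 2 in none (6.49%). The same members were highest in each library after TMM scaling, where libraries 3, 4, 1 and 2 were highest for 26.1%, 24%, 20.6% and 29.4% of genes. They were so with DESeq2 size factors too, where the shares were 27.6%, 23.4%, 26.4% and 22.6%. The sum over the 10 members was 558.91, 496.18, 733.4 and 654.75 CPM.

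Markers of other skin cells are given beside these counts, and their part in the members' differences was not tested. Their split is read against the same background, 45.6% of all genes as deposited and 26.3% after TMM scaling. The sebaceous gland list summed to 916, 1074, 1836 and 1373 CPM, with 7 of its 10 tested genes higher in libraries 3 and 4 as deposited and 5 after TMM scaling. The fibroblast list (3652, 3242, 6154 and 5453 CPM) did so in 8 of 8 genes and the blood endothelium list (110, 108, 162 and 151 CPM) in 10 of 10, in both scalings. Skeletal muscle genes summed to 3325, 2439, 4068 and 6108 CPM, with 9 of 10 in this split in both scalings and all 10 highest in library 4 as deposited. Macrophage genes summed to 151, 134, 166 and 149 CPM, with 4 of 9 in the split as deposited, near the background, and 1 after TMM scaling. No marker of these 5 lists was called by the spread test in limma, and none of the lists was at 0 in any library. Their median ranges on the log2(CPM + 1) scale stood beside 0.48 for the members. They were wider in the endothelial (0.54), fibroblast (0.62), sebaceous gland (0.78) and muscle (1.15) lists, and narrower in the macrophage list (0.31).

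Fabp4, which endothelium and macrophages also use, was lowest in library 3, where the endothelial and macrophage sums and Adipoq and Plin1 were highest. From library 1 to library 2, Fabp4 and both sums were all lower in CPM as deposited. After TMM scaling the endothelial median deviation was higher in library 2 (-0.09) than in library 1 (-0.24, log2). Fabp4 (0.32 and 0.22 in libraries 1 and 2) and the macrophage median (0.03 and -0.07) were still lower in library 2. How far these cells contribute to Fabp4 was not tested. Among the endothelial markers Egfl7 measured 30.9, 28.1, 38.6 and 37.7 CPM, and Pecam1 20.7, 19.7, 32.0 and 30.3 CPM. Brown fat markers summed to 203, 189, 276 and 287 CPM, led by Elovl3, which is also in the sebaceous gland list, and by the mitochondrial genes Cox8b and Cox7a1, which muscle uses as well. Ucp1, the defining gene of brown fat, was not analysed here, and Zic1, another of its markers, held 9 tags in all.

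**Figure D5:**
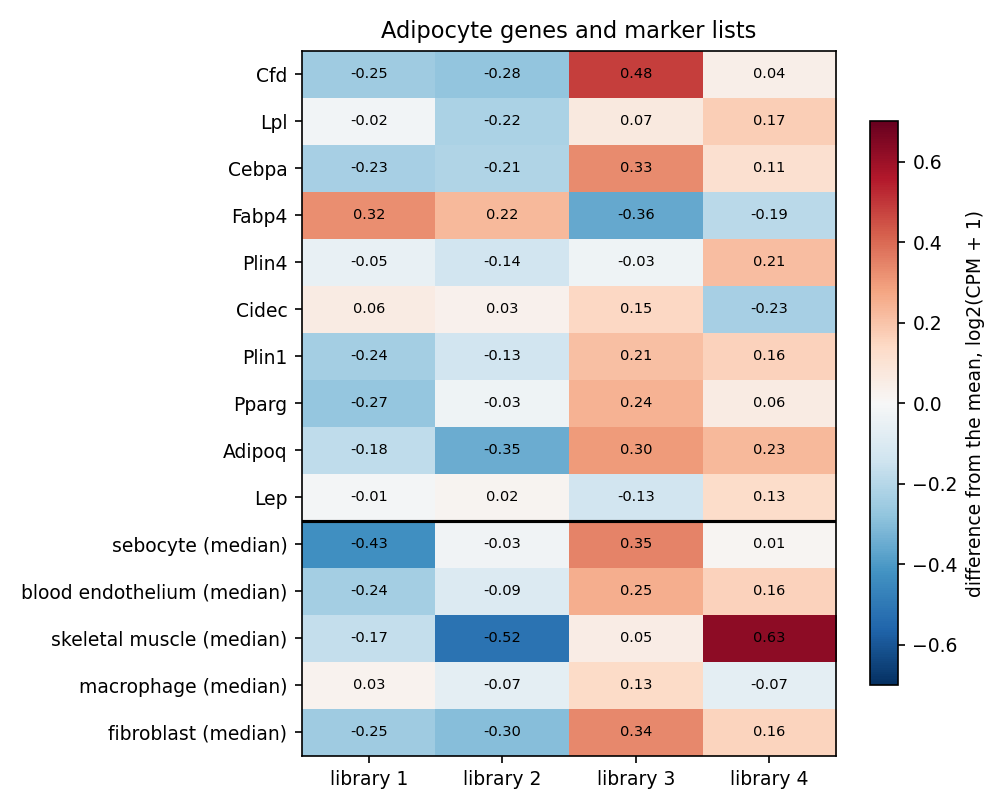
Difference of each adipocyte gene from its own mean over the 4 libraries (log2(CPM + 1), TMM-scaled), with the median of 5 marker lists below the line. Fabp4 runs from 0.32 in library 1 to -0.36 in library 3, opposite to Cfd (-0.25 and 0.48), and the muscle median peaks in library 4 at 0.63.

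The other genes of fat storage and release were measured nearly in full. Of the lipid droplet and lipolysis list, 16 of 16 genes were found and 15 tested, and none was called. Of the 15, 13 were higher in libraries 3 and 4 as deposited (45.6% of all genes) and 8 after TMM scaling (26.3%). The most abundant were Bscl2 (134 ± 12.8 CPM), which encodes the droplet assembly protein seipin, Cavin1 (126 ± 23.9), a coat protein of caveolae, Abhd5 (103 ± 9.59), the co-activator of the lipase ATGL, and Plin2 (88.6 ± 24.7), the droplet coat of most cells other than mature fat cells. The lipases themselves, named after their values were seen, were Lipe at 49.9, 45.7, 44.8 and 43.5 CPM and Pnpla2 at 10.3, 8.98, 10.5 and 11.5 CPM. Lipe was the 1 gene of the list that lay lower in libraries 3 and 4, where 11.5% of all genes did as deposited and 27.8% after TMM scaling. Its range was 0.26 on the log2(CPM + 1) scale, below the 0.28 of the median gene.

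Fatty acid uptake and triglyceride synthesis was covered by 19 of 19 genes, none called, of which 15 were higher in libraries 3 and 4 as deposited (45.6% of all genes) and 12 after TMM scaling (26.3%). Its leading genes were Scd1 (554 ± 218 CPM), the desaturase that is also a sebocyte marker, and the fatty acid synthesis genes Acly (224 ± 24.9) and Fasn (141 ± 16.6), followed by Dgat2 (139 ± 30.5), which makes triglyceride. Gpihbp1, which holds LPL on capillary walls and was named after its values were seen, stood at 9.74, 6.59, 8.79 and 10.8 CPM, far below Lpl itself. The median range of the list was 0.39 on the log2(CPM + 1) scale, against 0.28 for all genes tested.

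Of the hormones and receptors list, 16 of 16 genes were found, 15 tested and none called. The adiponectin receptor genes Adipor1 (118 ± 4.85 CPM) and Adipor2 (113 ± 4.90 CPM) led it, with ranges of 0.10 and 0.25 on the log2(CPM + 1) scale, ahead of Nampt (35.5 ± 3.03) and the insulin signalling adaptor Irs1 (33.9 ± 3.58). Adipoq, their ligand gene, stood well below both. The median range of the list was 0.72, against 0.28 for all genes tested. Of the 15, 11 were higher in libraries 3 and 4 as deposited (45.6% of all genes) and 8 after TMM scaling (26.3%). Retn, which encodes the fat cell hormone resistin in mice and was named after its values were seen, measured 15.7, 15.0, 28.1 and 22.1 CPM, highest in library 3 as Adipoq was.

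Complement genes that work beside CFD were low. Cfb, the substrate of CFD, measured 7.70, 6.53, 9.93 and 8.14 CPM, the stabiliser gene Cfp 4.24 ± 0.439 CPM and C3 1.62 ± 0.630 CPM. These genes lay far below Cfd and none was called by the spread test in limma. Cfi and C5 were not analysed here.

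Profiles over the 4 libraries were set against that of Adipoq, by the root mean square difference of log2(CPM + 1) deviations over 12069 genes of at least 5 CPM. The 5 nearest were Ddr2, a collagen receptor (0.0061), Zeb2 (0.012), Tsc22d3 (0.018), Sh2d3c (0.023) and the leptin receptor Lepr (0.025). Lepr measured 7.37, 6.00, 10.9 and 10.1 CPM. With 4 libraries 241 genes lay within 0.1 of Adipoq, so nearness is a description of these libraries only. Among the members Cebpa was nearest at rank 212, followed by Plin1 (451), Cfd (624), Lpl (869), Pparg (1453) and Plin4 (1893). Cidec was at rank 8272 and Fabp4 at 11652, and Lep was under the level required.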

How the data were processed

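CAGE was done on total RNA of 4 skin libraries, per the labels' protocols. The submitters' processing notes name BWA, HISAT2 and mm9. Positions fit GENCODE M21 on GRCm38 and are given on that build, with starts uncertain by 1 bp. The authors deposited CPM per cluster of tag starts for 69391 entries; how tags were joined into clusters is not stated there. The values were whole multiples of 1 tag in 100% of cases (tolerance 0.02 tags), so tags were recovered. Clusters were summed per gene. Of 17849 genes, 33 had no tag and 779 were set aside as shared with another gene. Unnamed clusters took 9.67% to 11.0% of the distinct-cluster tags per library and entered no test.

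Spread between libraries was tested on log2(CPM + 1) with TMM scaling in limma 3.58.1 (mean of at least 1 CPM, robust trended prior, one-sided upper F test). Promoters are clusters joined under 500 bp apart; the ratio of the 2 largest, each of at least 0.5 CPM with 0.1 CPM added, was tested against 0, two-sided. P-values were adjusted by Benjamini-Hochberg over all genes, with 0.05 as threshold. Alternatives used edgeR 4.0.16 and DESeq2 1.42.0 on recovered tags, other filters, pseudocounts and scalings, and leaving out each library. The fits were tested on simulated data. Named genes are all members, the 5 nearest to Adipoq, the 4 most abundant of each list and any list gene called. From the lists of other cell types only examples are named. Members and lists were chosen with earlier results of these data known. In the complement list, 1 gene is not reported here.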

Additional observations from a re-analysis of the deposited data

Results flagged for a closer look

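In 1 of 36 values of members (levels and cluster shares), a library stood far from the other 3. The first-exon cluster of Cidec took 51.2% of the gene's tags in library 1, against 52.3% to 52.4% in libraries 2 to 4. The gap was 0.948 of the whole range, above Dixon's critical value for 4 samples. Chance alone marks about 1 in 20 such values.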

How the results depend on the processing

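The count of genes whose spread was called was 61. It was 23 with a mean of at least 5 CPM, 104 without TMM scaling, 34 with DESeq2 size factors, 33 in edgeR and 513 by DESeq2 outliers, and 13 to 118 when each library was left out, the lowest without library 4 and the highest without library 3. Members called stayed at 0 except for 1, Cfd, among the DESeq2 outliers. The count of promoter ratios called was 2169, and 5169 with single clusters, 1278 with both promoters of at least 2 CPM and 0 by the exact sign-flip permutation test, which 4 libraries do not let below 0.125. The Pparg ratio was then still -1.85 with an adjusted p of 0.132 by that exact test, and p ranged up to 0.000304 in limma when a library was left out. The members' highest libraries did not differ between the 3 scalings. With the most used cluster alone, Pparg was at 10.4 CPM, Plin1 at 17.25 CPM and Cidec at 17.8 CPM. Settings on exon 2 and unnamed clusters were chosen after seeing the data. No paired analysis was possible because the labels give 1 group. Depth limits the PPARG2 start, with 2 to 10 tags per library, and the other weak starts.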
